A study of Homo sapiens with 6 samples.

Results

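Integrin transcripts were examined in PLC/PRF/5, a human hepatoma cell line, 48 hours after transfection. Of the 6 libraries, 3 came from cells given a plasmid that overexpresses ARD1 (the ARD1 libraries) and 3 from cells given the control vector (the control libraries). ARD1 (gene symbol NAA10) catalyses N-terminal acetylation of proteins. The study's title concerns ferroptosis and glutathione synthesis in hepatocellular carcinoma, so integrins are not named in its question. The sources used here do not state the plasmid's promoter, the share of transfected cells or whether replicate libraries are separate cultures. The 10 integrin genes were taken from a list of symbols matched to Ensembl identifiers. They are the α subunit genes ITGA1, ITGA2, ITGA3, ITGA5, ITGA6 and ITGAV and the β subunit genes ITGB1, ITGB4, ITGB5 and ITGB8. All 10 were found among the 25071 genes of the count table, and all 10 passed the filter on low counts that left 15816 genes for testing.

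Integrins are cell surface receptors made of 1 α and 1 β chain. They bind extracellular matrix outside the cell and link it, through talin, kindlin and other adaptors, to the actin cytoskeleton inside. The pairing sets the ligand. The α1 and α2 chains pair with β1 and bind collagens. The α3 and α6 chains bind laminins with β1, and α6 also pairs with β4 in hemidesmosomes, which attach to keratin filaments. The α5β1 receptor and the αV receptors recognise the RGD motif of fibronectin, vitronectin and latent TGF-β.

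Libraries held 21857327 to 25011357 counts. NAA10, the transfected gene, had 355, 400.2 and 294 CPM in the ARD1 libraries, against 35.6, 32.2 and 36.2 CPM in the control libraries. CPM are counts scaled to library size with TMM factors, a scale on which most genes are taken not to differ. That premise was not tested, and 64.6% of the genes tested passed the test described below. TMM factors were 1.093 to 1.101 in the ARD1 libraries and 0.880 to 0.931 in the control libraries, so small changes depend on the scaling. Control replicate 1 stood apart: chi-square over its degrees of freedom was 17.1 and 19.9 against the other controls, and 2.49 to 4.35 in all other pairs within a group. Of 8 hepatocyte markers tested 6 fell and 2 rose, or 1 rose without any 1 library. The marker ALB averaged 36.3 CPM in the ARD1 libraries and 315 CPM in the control libraries, and APOA1 and TTR did not pass the low-count filter.

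The α1 and α2 genes lie close together on chromosome 5, on the same strand, and their transcripts changed in opposite directions. ITGA1 (ENSG00000213949) occupies 52787896 to 52959210 and ITGA2 (ENSG00000164171) 52989326 to 53094779 (GRCh38, GENCODE 29). Their promoter windows are shown for that reason, with those of ITGB8, which fell with ITGA1, and of ITGA6, which rose with ITGA2. Each runs from 250 bases before to 50 after the annotated start (RefSeq, GRCh38.p14). The windows are chr5:52787666-52787965 (plus strand) for ITGA1, chr7:20330650-20330949 (plus strand) for ITGB8, chr5:52989102-52989401 (plus strand) for ITGA2 and chr2:172427086-172427385 (plus strand) for ITGA6. Capitals mark matches, on either strand, to the motifs listed after them.
ITGA1 promoter: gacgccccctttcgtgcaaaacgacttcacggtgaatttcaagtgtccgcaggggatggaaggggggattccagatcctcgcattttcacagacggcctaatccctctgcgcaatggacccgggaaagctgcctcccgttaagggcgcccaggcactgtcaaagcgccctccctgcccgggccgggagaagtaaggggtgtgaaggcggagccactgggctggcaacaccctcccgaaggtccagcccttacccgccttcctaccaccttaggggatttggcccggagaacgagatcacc
ITGB8 promoter: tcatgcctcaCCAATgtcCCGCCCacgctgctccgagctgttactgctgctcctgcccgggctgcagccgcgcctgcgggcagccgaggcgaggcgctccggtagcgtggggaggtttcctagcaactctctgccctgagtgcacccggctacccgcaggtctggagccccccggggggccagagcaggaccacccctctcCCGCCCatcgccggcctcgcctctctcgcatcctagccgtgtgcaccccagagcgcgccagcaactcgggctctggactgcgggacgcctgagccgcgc
ITGA2 promoter: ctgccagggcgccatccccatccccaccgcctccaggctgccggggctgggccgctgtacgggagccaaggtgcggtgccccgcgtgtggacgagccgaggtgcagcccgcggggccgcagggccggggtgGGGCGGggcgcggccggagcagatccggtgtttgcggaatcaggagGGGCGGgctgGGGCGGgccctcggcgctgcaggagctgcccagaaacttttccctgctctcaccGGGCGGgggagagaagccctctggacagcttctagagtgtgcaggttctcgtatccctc
ITGA6 promoter: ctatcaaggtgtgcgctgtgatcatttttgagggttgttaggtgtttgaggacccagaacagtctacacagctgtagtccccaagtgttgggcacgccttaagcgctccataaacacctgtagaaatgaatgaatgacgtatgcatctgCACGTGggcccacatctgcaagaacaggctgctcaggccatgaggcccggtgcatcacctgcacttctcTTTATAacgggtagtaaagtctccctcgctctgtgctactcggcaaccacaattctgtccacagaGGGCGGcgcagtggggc

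The motifs searched were the GC box GGGCGG, the CCAAT box CCAAT, the TATA box TATAAA, the AP-1 site TGANTCA, the cyclic AMP response element TGACGTCA and the E-box CACGTG. None contains another. The ITGA2 window held 4 GC boxes, the ITGB8 window 2 and 1 CCAAT box, and the ITGA6 window 1 GC box, 1 TATA box and 1 E-box. The ITGA1 window held no match to any of the 6 motifs. Of 35116 promoter windows of the same length, 44.95% held the GC box, 34.6% the CCAAT box, 11.5% the TATA box, 7.71% the AP-1 site, 1.85% the cyclic AMP response element and 7.26% the E-box. The window GC content was 61.7% for ITGA1, 71.7% for ITGB8, 72.7% for ITGA2 and 53.0% for ITGA6. A match is a description of the letters only. ITGA3 and ITGB4 had no window in the table used.

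Of the 10 integrin genes 2 rose, 4 fell and 4 did not pass the test. ITGA2 and ITGA6 were higher in the ARD1 libraries, and ITGA1, ITGA5, ITGB4 and ITGB8 were lower. The test was edgeR's quasi-likelihood test with Benjamini-Hochberg adjustment over all genes tested, at an adjusted p under 0.05. Of all genes 64.6% passed it, 32.4% higher and 32.2% lower, so the share of integrin genes that changed was near that of the table. The median log2 fold change, ARD1 plasmid over control vector, was -0.13 over the 10 genes and 0.03 over all genes tested. The falls of ITGA1, ITGB4 and ITGB8 were past an absolute log2 fold change of 1, as were the falls of 11.8% of all genes. The values measure transcripts of a cell population, in which fewer expressing cells and less RNA per cell cannot be told apart.

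**Figure D1:**
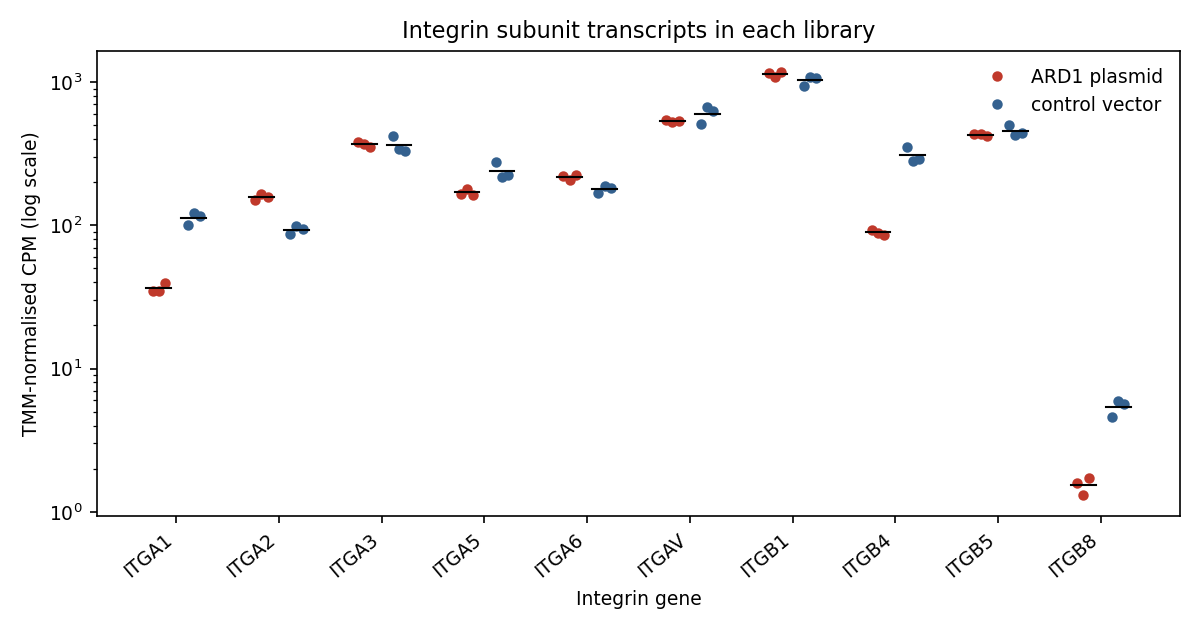
Transcript level of the 10 integrin genes in TMM-normalised CPM on a log axis, with 1 point per library (3 ARD1 libraries and 3 control libraries) and a bar at each group mean. ITGA1, ITGA5, ITGB4 and ITGB8 lie lower in every ARD1 library than in any control library, and ITGA2 and ITGA6 lie higher. ITGB1 is the highest of the 10 and ITGB8 the lowest in both groups.

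The collagen receptor chains went apart. ITGA1 had 34.9, 35.0 and 39.7 CPM in the ARD1 libraries, against 100.2, 122 and 115 CPM in the control libraries. The groups did not overlap, and the log2 fold change was -1.62 (SE 0.0897, adjusted p = 9.88e-10). The gene PELO lies within ITGA1 on the same strand, and 5.6% of ITGA1 exon bases overlap exons of PELO and another gene. PELO, chosen after its values were seen, had 41.2, 39.8 and 39.1 CPM in the ARD1 libraries, against 30.4, 31.8 and 29.9 CPM in the control libraries, the other direction from ITGA1 (0.38, adjusted p = 0.000664).

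ITGA2 had 150.1, 165 and 159 CPM in the ARD1 libraries, against 86.7, 98.6 and 94.1 CPM in the control libraries. Every ARD1 library was above every control library, and the log2 fold change was 0.76 (SE 0.0740, adjusted p = 4.35e-07), or 0.47 with GC and length offsets. No exon of another gene overlaps ITGA2. The ratio of ITGA2 to ITGA1 within a library does not depend on how libraries are scaled. With each level divided by the gene's merged exon length, it was 10.1, 11.05 and 9.41 in the ARD1 libraries, against 2.03, 1.90 and 1.92 in the control libraries. The mean ratio was 5.23-fold higher in the ARD1 libraries. This is a description, since the pair was chosen with both changes known.

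The other collagen-binding α chains, α10 and α11, also went apart. ITGA10 averaged 2.86 ± 0.340 CPM in the ARD1 libraries and 22.45 ± 2.34 CPM in the control libraries (log2 fold change -2.97, adjusted p = 1.1e-10, SD, n = 3 each). ITGA11 had 21.05, 17.9 and 19.6 CPM in the ARD1 libraries, against 10.5, 9.46 and 9.20 CPM in the control libraries (1.01, adjusted p = 1.33e-06). Of the 4 collagen-binding α genes, ITGA1 and ITGA10 fell and ITGA2 and ITGA11 rose. The collagens, their ligands, had 2 of 9 tested genes higher and 6 lower, with a median of -0.64. That is 88.9% called, against 64.6% of all genes tested. COL6A1 (-1.30), COL6A2 (-0.42), COL6A3 (-0.64), COL5A2 (-1.22) and COL3A1 (-4.80) fell, and COL6A2 no longer did with GC and length offsets (0.08, adjusted p = 0.15).

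Among laminin receptor chains, ITGB4 fell most. ITGB4 (chromosome 17, 75721328 to 75757818, plus strand), which forms α6β4 with α6 alone, had 92.3, 89.2 and 86.3 CPM in the ARD1 libraries, against 353, 282 and 291 CPM in the control libraries. The log2 fold change was -1.79 (SE 0.0876, adjusted p = 2.53e-10), and the lowest control library held over 3 times the CPM of the highest ARD1 library. ITGA6, its partner, had 223, 206.9 and 224 CPM in the ARD1 libraries, against 167, 189.0 and 183 CPM in the control libraries. The groups did not overlap for ITGA6 either, but the difference was small (0.28, SE 0.0717, adjusted p = 0.00349). With GC and length offsets the ITGA6 call was lost (0.10, adjusted p = 0.0761, the highest of its alternatives, the lowest being 4.57e-05), and with library totals it was 0.54.

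ITGA6 per kilobase was 2.498, 2.40 and 2.68 times ITGB4 in the ARD1 libraries, against 0.490, 0.694 and 0.653 times in the control libraries. The higher transcript of the pair was ITGA6 in all 3 ARD1 libraries and ITGB4 in all 3 control libraries, and the mean ratio was 4.13-fold higher in the ARD1 libraries. Against ITGB1, its other partner, ITGA6 was at 0.1765, 0.175 and 0.1745 in the ARD1 libraries and 0.164, 0.159 and 0.158 in the control libraries.

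ITGA3, which pairs with β1 as a laminin receptor, did not pass the test. It had 383, 371 and 350.1 CPM in the ARD1 libraries, against 421, 343 and 331 CPM in the control libraries, and the ARD1 values fell within the control range (0.01, SE 0.0870, adjusted p = 0.906). It passed as higher with GC and length offsets (0.33, adjusted p = 1.45e-05), with library totals (0.28, adjusted p = 0.00493) and without control replicate 1 (0.12, adjusted p = 0.0207). The highest adjusted p over its alternatives was 0.992. ITGA7, a muscle laminin receptor chain, rose slightly (0.28, adjusted p = 0.0121), a call lost without control replicate 2 (0.22, adjusted p = 0.084) or ARD1 replicate 3 (0.26, adjusted p = 0.0602).

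**Figure D2:**
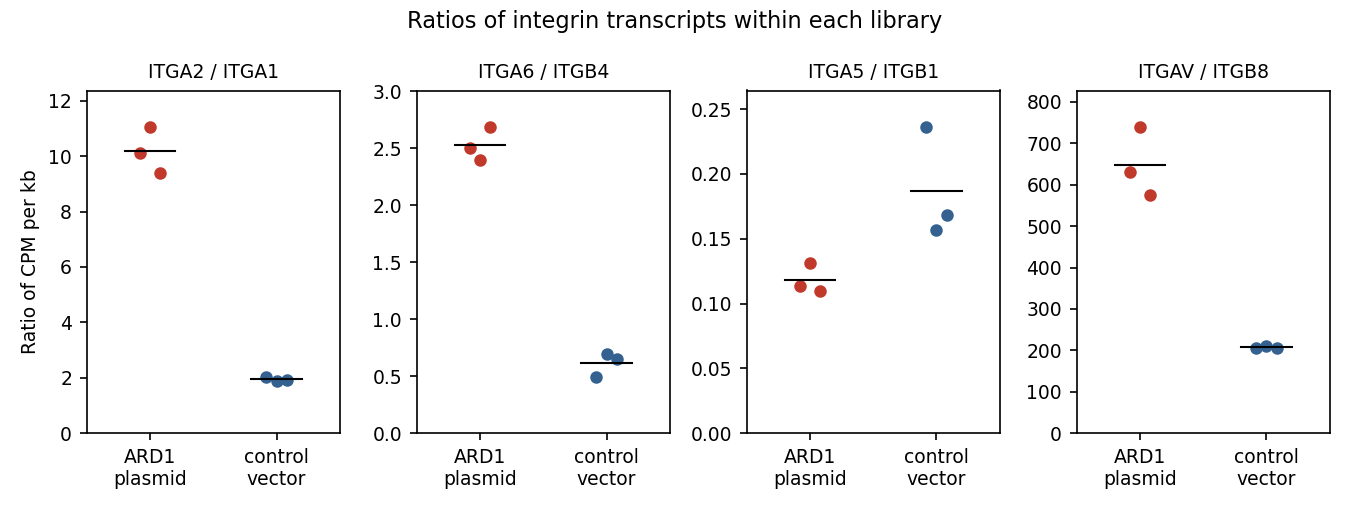
Ratio of integrin transcripts within each library, each level taken as CPM per kilobase of merged exon, with 1 point per library, a bar at the mean of 3, and axes that start at 0. The ratios of ITGA2 to ITGA1, ITGA6 to ITGB4 and ITGAV to ITGB8 are higher, and that of ITGA5 to ITGB1 lower, in every ARD1 library than in any control library.

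Most laminin and hemidesmosome genes were higher, unlike ITGB4. Of 10 laminin genes tested 7 rose and 2 fell (90.0% called, against 64.6% of all genes tested), with a median of 0.51. LAMB3 and LAMA3 encode chains of epithelial basement membrane laminin. LAMB3 averaged 86.5 ± 3.92 and 29.6 ± 2.10 CPM (1.54), and LAMA3 341 ± 12.9 and 220 ± 4.84 CPM (0.63), in the ARD1 and control libraries (SD, n = 3 each). Of the more abundant chains LAMB1 rose (0.85) and LAMA5 fell (-0.99), while LAMC1 rose (0.22) but not without control replicate 2 (adjusted p = 0.0741), control replicate 3 (adjusted p = 0.134) or ARD1 replicate 1 (adjusted p = 0.0534).

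Of 7 hemidesmosome genes listed with α6β4, laminin chains included, 4 rose and 2 fell (85.7% called, against 64.6% of all genes tested). COL17A1, a transmembrane collagen of the hemidesmosome, fell as ITGB4 did, with 4.35, 4.39 and 4.47 CPM in the ARD1 libraries, against 22.9, 19.4 and 21.8 CPM in the control libraries (-2.28). The tetraspanin CD151 fell by 0.37 on the log2 scale, and came to 0.05 with GC and length offsets. DST, chosen after its values were seen, rose (0.61), and the β4-binding linker PLEC was at 0.18 (adjusted p = 0.0897). PLEC passed as higher without control replicate 1 (0.30, adjusted p = 7.66e-08), with GC and length offsets (0.59, adjusted p = 1.69e-08) and with library totals (0.45, adjusted p = 0.000219).

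The fibronectin receptor chain α5 fell. ITGA5 (chromosome 12, 54395261 to 54419460, minus strand) had 167, 180 and 163 CPM in the ARD1 libraries, against 279, 216 and 226 CPM in the control libraries. The groups did not overlap (log2 fold change -0.50, SE 0.0902, adjusted p = 0.000192), and control replicate 1 was the highest of the 6. The log2 fold change was -0.39 without that library and -0.23 with library totals. Against ITGB1, its only partner, ITGA5 per kilobase was at 0.114, 0.131 and 0.1095 in the ARD1 libraries and 0.236, 0.157 and 0.168 in the control libraries. FN1, the ligand, fell far more (-2.47), at 5298 ± 85.5 CPM in the ARD1 libraries and 29439 ± 2573 CPM in the control libraries (SD, n = 3 each).

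The αV chain and its β partners differed in level and in change. ITGAV had 544, 525 and 540 CPM in the ARD1 libraries, against 509, 675 and 625 CPM in the control libraries. The ARD1 values lay within the control range, and ITGAV did not pass (-0.17, SE 0.0890, adjusted p = 0.11). It passed as lower without control replicate 1, the lowest control (-0.29, adjusted p = 3.41e-07) and with GC and length offsets (-0.50, adjusted p = 3.88e-08), and its sign turned with library totals (0.09, adjusted p = 0.424).

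ITGB5, which pairs with αV, had 432, 433 and 424 CPM in the ARD1 libraries, against 506, 425 and 441 CPM in the control libraries. The groups overlapped (-0.09, SE 0.0746, adjusted p = 0.302), and the sign turned with library totals (0.18, adjusted p = 0.0205) and with GC and length offsets (0.02). ITGB8, which pairs with αV in the activation of latent TGF-β, was far less abundant. It had 1.59, 1.31 and 1.73 CPM in the ARD1 libraries, against 4.59, 5.89 and 5.61 CPM in the control libraries. These rest on 35 to 43 counts per ARD1 library and 101 to 125 per control library. The groups did not overlap, and ITGB8 fell by 1.80 on the log2 scale (SE 0.195, adjusted p = 1.4e-06).

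Per kilobase, ITGAV exceeded ITGB8 by 632, 739 and 575 times in the ARD1 libraries, against 205, 211 and 206 times in the control libraries. Of 8 genes of the latent TGF-β complex, the cargo of αV receptors, 2 rose and 3 fell. The share called was 62.5%, against 64.6% of all genes tested. TGFB1 (0.50) and LTBP1 (0.47), which tethers the latent complex to matrix, rose. TGFB2 (-1.13), LTBP4 (-0.62) and LRRC32 (-3.10, chosen after its values were seen), which displays latent TGF-β at the cell surface, fell. LRRC32 was near the floor, with 5, 0 and 7 counts in the ARD1 libraries and 35, 31 and 26 in the control libraries. LTBP3 was at 0.08 and did not pass. It passed as higher with GC and length offsets (0.60, adjusted p = 1.98e-09), with library totals (0.35, adjusted p = 0.000421) and without control replicate 1 (0.15, adjusted p = 0.00415).

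ITGB1, the β chain shared by most of these receptors, was the most abundant and differed little. It had 1161, 1088 and 1179.9 CPM in the ARD1 libraries, against 936, 1094 and 1066 CPM in the control libraries. The highest control library lay above the lowest ARD1 library, and ITGB1 did not pass (0.15, SE 0.0748, adjusted p = 0.0978). It passed as higher with upper-quartile scaling (0.19, adjusted p = 0.0383) and with library totals (0.41, adjusted p = 0.000583), and was at -0.07 with GC and length offsets (range of adjusted p over its alternatives 0.000583 to 0.270). The noncoding transcript ITGB1-DT, which starts near ITGB1 on the opposite strand and was chosen after its values were seen, rose (13.9 ± 1.42 and 2.92 ± 0.501 CPM in the ARD1 and control libraries, 2.25, adjusted p = 8.28e-09, SD, n = 3 each). Only 0.7% of ITGB1 exon bases lie opposite its exons.

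**Figure D3:**
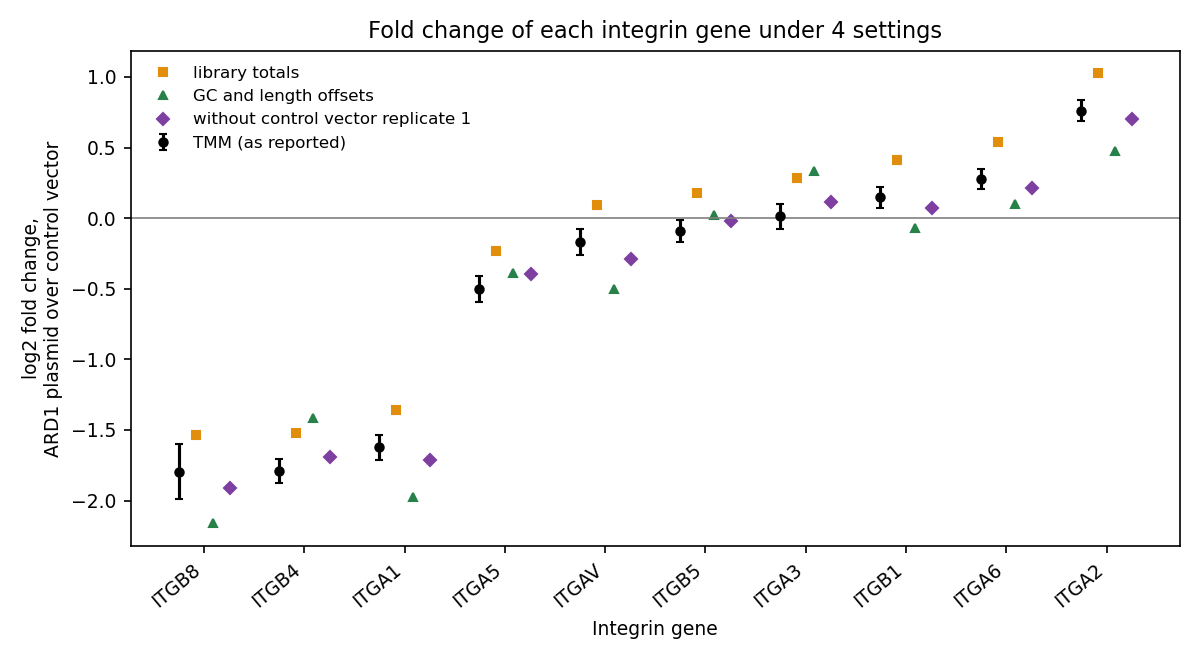
log2 fold change (ARD1 plasmid over control vector) of the 10 integrin genes under 4 settings, with the standard error for TMM scaling. ITGB8, ITGB4, ITGA1 and ITGA5 are below 0 and ITGA6 and ITGA2 above 0 under each, while ITGAV, ITGB5 and ITGB1 have points on both sides of 0.

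The order of levels changed in its middle. Per kilobase of merged exon, ITGB1 was first in both groups at 190.1 ± 8.08 CPM per kilobase in the ARD1 libraries and 172 ± 14.0 in the control libraries (SD, n = 3 each). In the ARD1 libraries the order went on with ITGB5, ITGAV, ITGA3, ITGA6, ITGA5, ITGA2, ITGB4, ITGA1 and ITGB8. Neighbours there did not overlap, except ITGB5 (66.6 ± 0.794) and ITGAV (65.3 ± 1.22). In the control libraries it went on with ITGAV, ITGB5, ITGB4, ITGA3, ITGA5, ITGA6, ITGA2, ITGA1 and ITGB8. Overlapping neighbours there were ITGAV (73.5 ± 10.4) and ITGB5 (70.9 ± 6.71), ITGB4 (45.6 ± 5.78) and ITGA3 (37.2 ± 4.99), ITGA3 and ITGA5 (31.7 ± 4.44), and ITGA5 and ITGA6 (27.5 ± 1.73). ITGB4 was thus at rank 8 in the ARD1 libraries and at rank 4 in the control libraries, or at 8 and 5 by the length of the longest transcript.

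The chains can also be given as shares of the summed level per kilobase. Of the 6 α genes, ITGAV made up 36.4%, 35.6% and 36.6% in the ARD1 libraries, against 33.8%, 42.5% and 41.0% in the control libraries. ITGA2 made up 10.4%, 11.6% and 11.2% in the ARD1 libraries, against 5.96%, 6.43% and 6.40% in the control libraries. ITGA1 fell to 1.03%, 1.05% and 1.19% in the ARD1 libraries, against 2.94%, 3.39% and 3.34% in the control libraries. Among the 4 β genes, ITGB4 took 4.98%, 5.04% and 4.64% in the ARD1 libraries, against 18.2%, 14.4% and 14.9% in the control libraries. ITGB1 took 70.5%, 69.2% and 71.4% in the ARD1 libraries, against 54.3%, 62.8% and 61.3% in the control libraries. The share held by ITGB1 was thus higher in every ARD1 library, while its own level did not pass the test, and ITGB5 shares overlapped between groups.

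The members fell into those with AT-rich and those with GC-rich transcripts, and control replicate 1 differed from the other controls along that line. In the 6 genes with a GC content of 37.8% to 42.9% (ITGB8, ITGAV, ITGA1, ITGB1, ITGA2 and ITGA6), it was below the mean of control replicates 2 and 3, by 0.15 (ITGA2) to 0.35 (ITGAV) on the log2 scale. In the 4 genes at 54.3% to 63.7% (ITGB5, ITGA5, ITGA3 and ITGB4) it was above it, at 0.23 to 0.33. Across these 10 genes of the same libraries this is a description only, and its part in the comparisons was not tested. Without control replicate 1 the 6 calls stayed in their direction, at -1.71 for ITGA1, 0.70 for ITGA2, -0.39 for ITGA5, 0.21 for ITGA6, -1.69 for ITGB4 and -1.91 for ITGB8, and ITGA3 and ITGAV joined them, as given above.

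**Figure D4:**
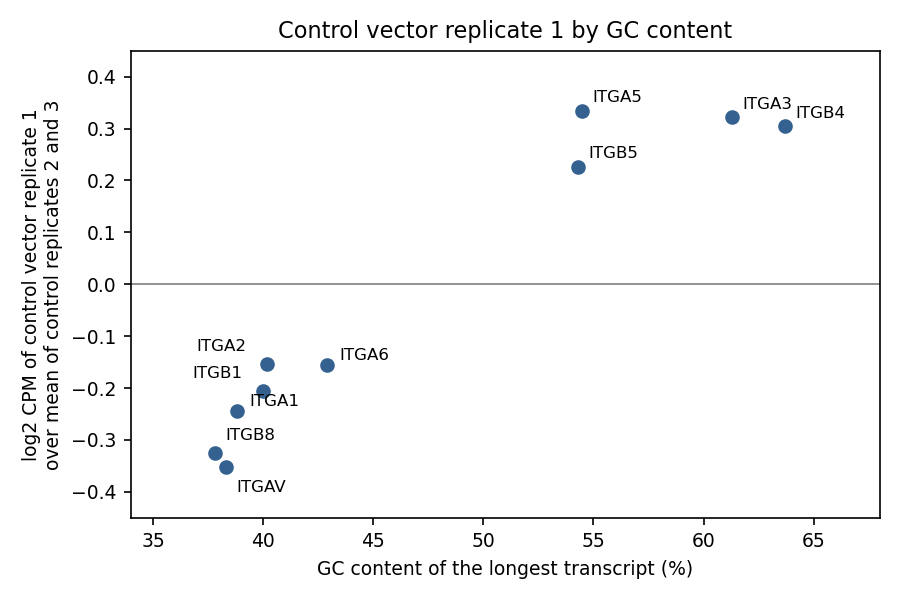
Level of each integrin gene in control replicate 1 relative to the mean of control replicates 2 and 3 (log2 of CPM), against the GC content of the gene's longest transcript, with 1 point per gene. The 6 genes at 37.8% to 42.9% GC lie below 0 and the 4 at 54.3% to 63.7% above it.

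Among the other integrin subunits, of 16 listed genes 14 were found in the table and 11 tested. Of these 4 rose and 6 fell (median -0.44), in a table where 64.6% of all genes tested passed. ITGA2B, the platelet fibrinogen receptor chain, fell to 0.155 ± 0.126 CPM in the ARD1 libraries, against 4.62 ± 0.422 CPM in the control libraries (-4.81, SD, n = 3 each). It was near the floor in the ARD1 libraries, with 2, 8 and 2 counts, against 106, 103 and 92 counts in the control libraries. Of the leukocyte chains, ITGAM (-1.20) and the β partner ITGB2 (-1.20) fell, while ITGAX (2.11) and ITGAL (0.99) rose. Counts were low for ITGAX (59 to 80 per ARD1 library and 13 to 16 per control library). They were lower still for ITGAL (26 to 31 per ARD1 library and 12 to 13 per control library). ITGAE (-0.44) and its partner ITGB7 (-0.56) fell, and ITGB3, a partner of αV, did not pass (0.64, adjusted p = 0.232). ITGA9, ITGAD and ITGB6 were at or under 0.760 CPM in every library and were not tested. ITGA4 and ITGA8 were listed but not found among the matched symbols of the count table.

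Several of those calls rested on single libraries or settings. ITGAL did not pass when control replicate 3 (adjusted p = 0.0508) or ARD1 replicate 1 (adjusted p = 0.0615) was left out, and neither did ITGAE without ARD1 replicate 2 (adjusted p = 0.0939) or with library totals (adjusted p = 0.33). ITGB7 was lost without control replicate 1 (adjusted p = 0.0901), ARD1 replicate 1 (adjusted p = 0.139) or ARD1 replicate 2 (adjusted p = 0.0823), and 42.1% of its exon bases lie opposite exons of ZNF740. ITGB3 shares 51.6% of its exon bases with a gene on the same strand. The summed level of 5 immune markers was 0.293 to 0.937 CPM in the ARD1 libraries and 2.09 to 3.37 CPM in the control libraries, with PTPRC lower (-4.91) and at 0 in 1 ARD1 library, and CD3E and LYZ at 0 in 2 control libraries each. Its part in the leukocyte integrin results was not tested.

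The machinery that activates and links integrins changed in both directions. Of 8 tested genes listed as activators 4 rose and 3 fell (87.5% called, against 64.6% of all genes tested). The talins TLN1 (0.35) and TLN2 (1.88), which bind β tails, the kindlin FERMT2 (0.80) and the small GTPase RAP1B (0.48) rose. The kindlins FERMT1 (-0.71, chosen after its values were seen) and FERMT3 (-0.53) fell. The calcium-binding protein CIB1, placed on this list without a test of its role here, fell too (-1.15). TLN1 averaged 707 ± 20.2 CPM in the ARD1 libraries and 555 ± 93.7 CPM in the control libraries (SD, n = 3 each), and was not called without control replicate 2 (adjusted p = 0.058) or 3 (adjusted p = 0.0587). RAP1B was not called with GC and length offsets (0.09).

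Of 10 tested genes listed as inhibitors 1 rose, 3 fell and 6 did not pass, a smaller share called than the 64.6% of all genes tested. FLNA, an actin crosslinker that competes with talin for β tails, rose (0.43), and SHARPIN (-0.72), KANK2 (-0.58) and DOK1 (-1.22) fell. DAB2, an endocytic adaptor, was at -0.04 and did not pass. With library totals 5 of this list were called higher, DAB2 (0.23, adjusted p = 0.00806) among them. With GC and length offsets DAB2 was called lower (-0.13, adjusted p = 0.0406).

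Of 30 adhesion adaptors and kinases 7 rose and 16 fell (76.7% called, against 64.6% of all genes tested), with a median of -0.26. With library totals 11 were higher. The 7 that rose, chosen after their values were seen, were GIT1 (0.861), CRK (0.67), ARHGEF7 (0.533), SRC (0.415), PTK2B (0.406), GIT2 (0.366) and VCL (0.305). The actin crosslinkers ACTN1 (-0.98) and ACTN4 (-0.48) fell, as did the tensins TNS2 (-1.28), TNS3 (-0.71) and TNS4 (-5.53), which bind β tails. The tensin TNS1, also chosen after its values were seen, did not pass (0.253, adjusted p = 0.413). TNS4 averaged 0.225 CPM in the ARD1 libraries and 10.6 CPM in the control libraries. TES, a LIM-domain protein of focal adhesions, fell (-0.28) but not with library totals (-0.02, adjusted p = 0.813). The focal adhesion kinase PTK2 (0.05) and the integrin-linked kinase ILK (0.04), chosen after their values were seen, did not pass.

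Of 13 lateral membrane partners 5 rose and 5 fell (76.9% called, against 64.6% of all genes tested). PLAUR, the urokinase receptor, rose (63.6 CPM in the ARD1 libraries and 15.3 CPM in the control libraries, 2.06). SLC3A2, which binds β1 tails (1.47), and CAV1 (0.31) rose too. The tetraspanin CD82 also rose (2.27), at a low level of 3.71 CPM in the ARD1 libraries and 0.770 CPM in the control libraries. The tetraspanins CD9 (-0.565), CD81 (-0.679) and TSPAN4 (-0.483), chosen after their values were seen, fell, as did CD151, given above. The syndecans SDC1 and SDC4, chosen likewise, went apart: SDC1 fell (-0.592) and SDC4 rose (0.653). BSG (-0.21) and CD63 (-0.14) did not pass, and BSG was called lower without control replicate 2 or 3 (adjusted p = 0.0197 and 0.0259) and higher with GC and length offsets (0.18, adjusted p = 0.0082).

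Of 14 integrin trafficking genes 5 rose and 3 fell (57.1% called, against 64.6% of all genes tested). RAB21, which binds α tails and drives their endocytosis, rose (0.82), as did PPFIA1 (0.77) and ARF6 (0.26), while the recycling GTPase RAB11B fell (-0.68). ARF6 was not called with GC and length offsets (0.11). VPS35 (-0.14) and SNX17 (-0.18), a sorting factor for β1, did not pass, but VPS35 did as lower with GC and length offsets (-0.37, adjusted p = 3.59e-06) and without control replicate 1 (-0.22, adjusted p = 0.000112), and SNX17 without control replicate 3 (-0.29, adjusted p = 0.0182). With GC and length offsets, or with control replicate 1 or control replicate 3 left out, 5 genes of this list fell, and with library totals 8 rose.

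Of 10 tested genes on the list of fibronectin and RGD ligands 3 rose and 4 fell (70.0% called, against 64.6% of all genes tested, median -0.03). Members of this list were not checked for the RGD motif. Besides FN1, SPP1 (osteopontin, -1.04) and TGFBI (-0.65) fell, and the matricellular protein CCN1 rose (1.70). VTN, which encodes vitronectin and was chosen after its values were seen, was at or under 0.359 CPM in every library and was not tested.

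**Figure D5:**
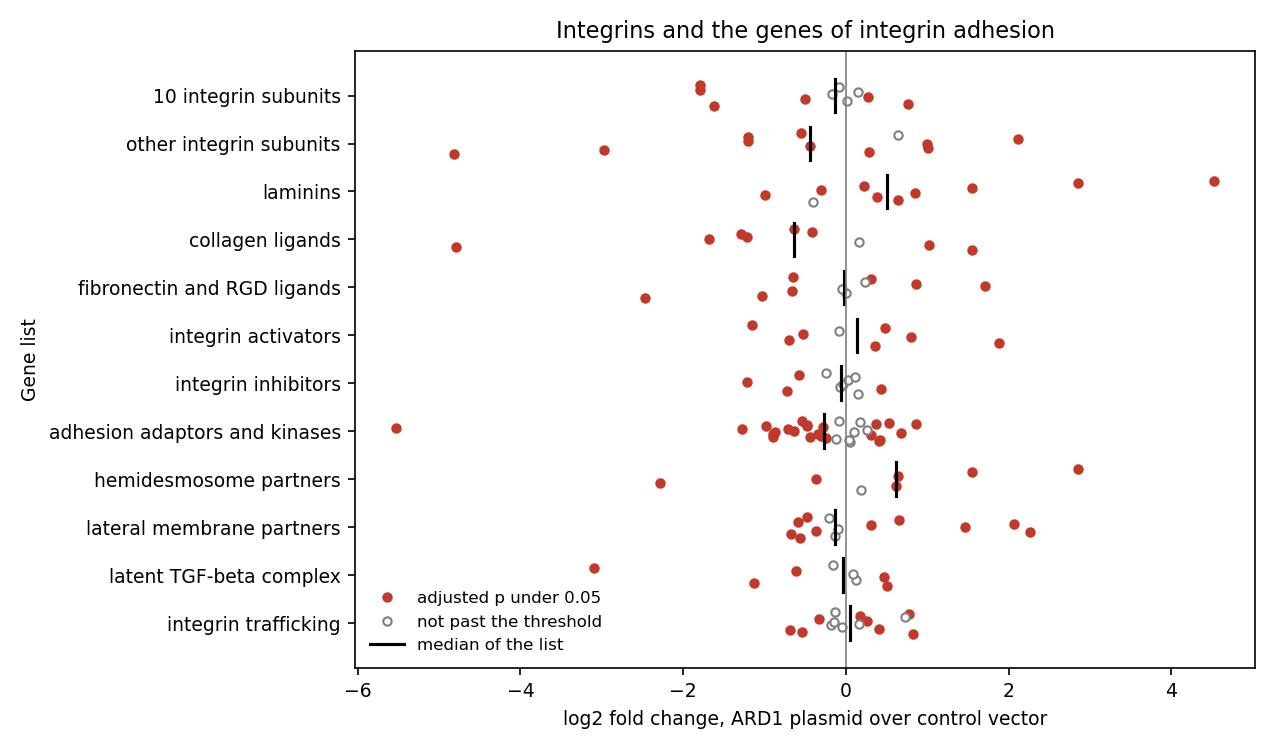
log2 fold change (ARD1 plasmid over control vector) of each tested gene in 12 lists of integrins, ligands and adhesion genes, with filled points for genes past an adjusted p of 0.05, open points for the rest and a bar at each list's median. Both directions occur in every list, and the medians run from -0.64 (collagens) to 0.61 (hemidesmosome partners).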

How the data were processed

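The authors deposited unnormalised counts of 6 libraries by Ensembl gene. Per the labels' protocols, libraries were directional and made from RNA without rRNA. The submitters' processing notes list cutadapt 4.6, STAR 2.7.11b and GRCh38. How reads were assigned to genes, and whether by strand, is not given in the sources used here. Of 25071 identifiers, 25052 matched a symbol. Genes were filtered with filterByExpr, scaled by TMM and tested by edgeR's quasi-likelihood method (versions: edgeR 4.0.16, limma 3.58.1, DESeq2 1.42.0, R 4.3.3) with Benjamini-Hochberg adjustment over the 15816 genes tested, with no covariate. P-values measure the spread between libraries, which may be technical. A library held 21857327 to 25011357 counts, and intervals of depth cover counting error only, since there are no molecular identifiers. At this depth 3 counts are 0.112 to 0.143 CPM. Lengths, GC content and exon overlaps came from GENCODE 29.

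The 10 integrin genes, the related lists and the tests were chosen with earlier results of these data known. Named genes were all integrins, NAA10, and in each related list the 3 with the highest CPM, the 3 with the smallest p, and every called gene where 4 or fewer were called. Lists are described by counts and medians, without a set test, and ratios within libraries without a test, since 3 against 3 libraries allow no permutation p under 0.1. Over all genes tested 64.6% passed, 32.4% higher and 32.2% lower, and a list's counts are to be read beside those shares. Marker lists for hepatocytes, endothelial cells, fibroblasts and immune cells served as checks. Endothelial markers had 3 of 4 tested genes higher and 1 lower, and fibroblast markers 1 of 5 higher and 2 lower. Replicate numbers did not pair the libraries. Alternatives were other scalings, tests, filters and thresholds, the replicate block, GC and length offsets, and leaving out each library. Some genes that the rule would name are not reported here.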

Additional observations from a re-analysis of the deposited data

How the results depend on the processing

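Over 15 alternatives each, ITGA1 (log2 fold change -1.97 to -1.36), ITGA2 (0.47 to 1.03), ITGA5 (-0.60 to -0.23), ITGB4 (-1.88 to -1.41) and ITGB8 (-2.16 to -1.53) kept their direction and their call, and ITGA6 lost its call in 1 of 15. With library totals the log2 fold changes had a median of 0.30, against 0.03 with TMM, 68.6% of called genes were higher, against 50.2%, and 5 integrin genes were called higher. Requiring an absolute log2 fold change of 1 left 1536 genes higher and 1870 lower, and 0 integrin genes higher. The sign turned for ITGA3 with RLE scaling (-0.007), DESeq2 (-0.007), no filter (-0.001) and without control replicate 2, control replicate 3 or ARD1 replicate 1; leaving out 1 library gave ITGA3 -0.085 to 0.116. It also turned for ITGAV (0.092) and ITGB5 (0.177) with library totals, and for ITGB1 (-0.073) and ITGB5 (0.02) with GC and length offsets. Among genes of the related lists it turned with library totals for DAB2 (0.228), BSG (0.061), CD63 (0.132), SNX17 (0.087) and VPS35 (0.127), with GC and length offsets for COL6A2 (0.082), CD151 (0.053), BSG (0.183), CD63 (0.036) and SNX17 (0.03) and with upper-quartile scaling for DAB2 (0.006). The cause was not tested. Of 480 list counts recomputed, 430 stayed within 1.5 times, and 19 of the others moved with the log2 minimum. With library totals or GC and length offsets 1 laminin and 1 hemidesmosome gene fell, against 2 and 2. Leaving out 1 library gave 4586 to 5414 genes higher and 4685 to 5570 lower, and 2 to 3 integrin genes higher and 4 to 5 lower.

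The replicate number was also fitted as a replicate block. Same-numbered libraries did not deviate together (correlations -0.0356 to 0.0342), so they share only a number, and not every library correlated best with its own number. The block gave 5203 genes higher and 5090 lower, against 5127 and 5096 without it, and 2 integrin genes higher and 4 lower in both fits; PLEC (0.19) and BSG (-0.20) passed with the block. Depth limits ITGB8 among the 10 genes, with 35 to 125 counts per library.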
